A study of Sus scrofa with 75 samples.

Results

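The miRNAs of pig peripheral blood mononuclear cells (PBMC) were compared between pigs reared on topsoil and control pigs at day 20 of age, the last day of the exposure. The comparison used 13 of the 39 miRNA libraries, and the series holds 75 samples in all. The 13 libraries were chosen by the names of the columns of the deposited miRNA table, 8 of them named control and 5 topsoil, each from another pig. All pigs were synthetic large white piglets of median body weight in their litter. Day 20 was also the day of weaning, when all piglets were moved to a nursery without soil. The sources used here do not say whether blood was drawn before or after the move. In the topsoil group, soil was renewed every day, starting at day 4 of age, and the control group lived in ordinary farrowing crates with no soil. Soil is a mixture, and its microbes and minerals cannot be told apart as agents in this design. PBMC were separated on a Histopaque density gradient, a method that enriches lymphocytes and monocytes and can carry over red blood cells, reticulocytes and platelets. The table held 479 entries of a mature miRNA and its precursor, which gave 457 mature names, and 293 of these had a read at day 20. Of them, 209 passed the filter on low counts and were tested. The treatment and age that the sample characteristics gave both matched the column name in 1 of the 13 libraries, so every result below rests on the names of the columns, and the groups of the characteristics are an alternative only.

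MicroRNAs are short RNAs that guide the silencing complex to messenger RNAs, mostly by pairing of the seed, bases 2 to 8 of the mature strand, with sites in the 3′ part of the message. miRNAs with one seed can share targets, and several miRNA genes lie side by side and are made from one transcript. In blood, miR-486, miR-451 and miR-144 are made in quantity by erythroid cells, while miR-150, miR-342 and the miR-181 family are known from lymphocytes, miR-223 from myeloid cells, and miR-146a, miR-155 and miR-132 from innate immune responses.

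The mature sequences of the miRNAs on which the comparison turns are shown first, with the seed in capitals, as read from the RefSeq annotation of Sscrofa11.1. A mature sequence was found for 179 of the 209 miRNAs tested. Of the first 3, miR-132 had topsoil libraries above all controls, and miR-10b and miR-10a-5p share a seed and both had a positive fold change:
miR-132: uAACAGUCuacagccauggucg
miR-10b: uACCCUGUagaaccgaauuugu
miR-10a-5p: uACCCUGUagauccgaauuugu
Among miRNAs with lower values in topsoil, 4 fall into 2 seed groups, miR-148a-3p with miR-148b-3p and miR-16 with miR-15b:
miR-148a-3p: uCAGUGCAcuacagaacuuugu
miR-148b-3p: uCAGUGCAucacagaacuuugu
miR-16: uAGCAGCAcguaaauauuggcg
miR-15b: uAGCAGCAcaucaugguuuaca
The next 3 were also among the 12 lower miRNAs with the smallest p, and miR-30e-5p has the seed of the miR-30 family:
miR-151-5p: uCGAGGAGcucacagucuagu
miR-30e-5p: uGUAAACAuccuugacuggaagcu
miR-451: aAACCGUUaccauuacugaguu
The last is the erythroid miRNA that filled most of every library:
miR-486: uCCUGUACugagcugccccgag

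On Sscrofa11.1, mature miR-132 lies at chr12:48162635-48162656 (minus strand) in no other annotated gene. miR-10b lies at chr15:81951653-81951674 (plus strand) and miR-10a-5p at chr12:24833694-24833715 (minus strand), both outside other genes. miR-148a-3p lies at chr18:46415256-46415277 (plus strand), outside genes, and miR-148b-3p at chr5:19531038-19531059 (plus strand) in an intron of COPZ1. miR-16 is encoded at chr11:17757614-17757635 (plus strand) and at chr13:100083336-100083357 (plus strand), the second copy in an intron of SMC4 together with miR-15b at chr13:100083191-100083212 (plus strand). miR-151-5p lies at chr4:2849052-2849072 (plus strand) in an intron of PTK2 and miR-30e-5p at chr6:170429889-170429912 (minus strand) in an intron of NFYC. miR-451 lies at chr12:45088838-45088859 (minus strand) in an intron of ERAL1 on the opposite strand, and miR-486 at chr17:10758868-10758889 (minus strand) in an intron of the erythroid ankyrin gene ANK1.

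One miRNA, miR-486, took most of the reads, and its share differed widely between pigs of one group. It held 94.6, 74.0, 89.2, 95.5 and 85.8% of the counts in topsoil 1 to 5, and between 65.5% and 95.1% in the 8 controls (median 77.7%). The groups overlapped, while controls 1, 6, 7 and 8, at 65.5% to 72.2%, lay below the lowest topsoil library. The means were 87.8% ± 8.66 (SD, n = 5) and 78.6% ± 12.5 (SD, n = 8), a difference of 9.20 percentage points with an exact two-sided permutation p of 0.157. Totals ran from 8023913 to 13342903 counts, yet only 579876 to 3522677 counts were left for all other miRNAs together. These other counts came to 674615, 2653312, 1401397, 579876 and 1762319 in topsoil 1 to 5, with a median of 2055170 in controls (exact permutation p = 0.244). The number of mature names with a read was 140, 220, 179, 154 and 168 in topsoil 1 to 5 and 141 to 253 in controls (median 220). Its mean was 172 ± 30.5 (SD, n = 5) against 211 ± 41.1 (SD, n = 8), and the exact permutation p was 0.112. Without control 4 or without topsoil 2 this p was 0.0404 and 0.0444, with differences of -48.5 and -50.5 names. By the correlation of log2 CPM over the 209 miRNAs, 0 of the 5 topsoil libraries had another topsoil library as its nearest neighbour, while 6 of the 8 controls had another control.

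**Figure D1:**
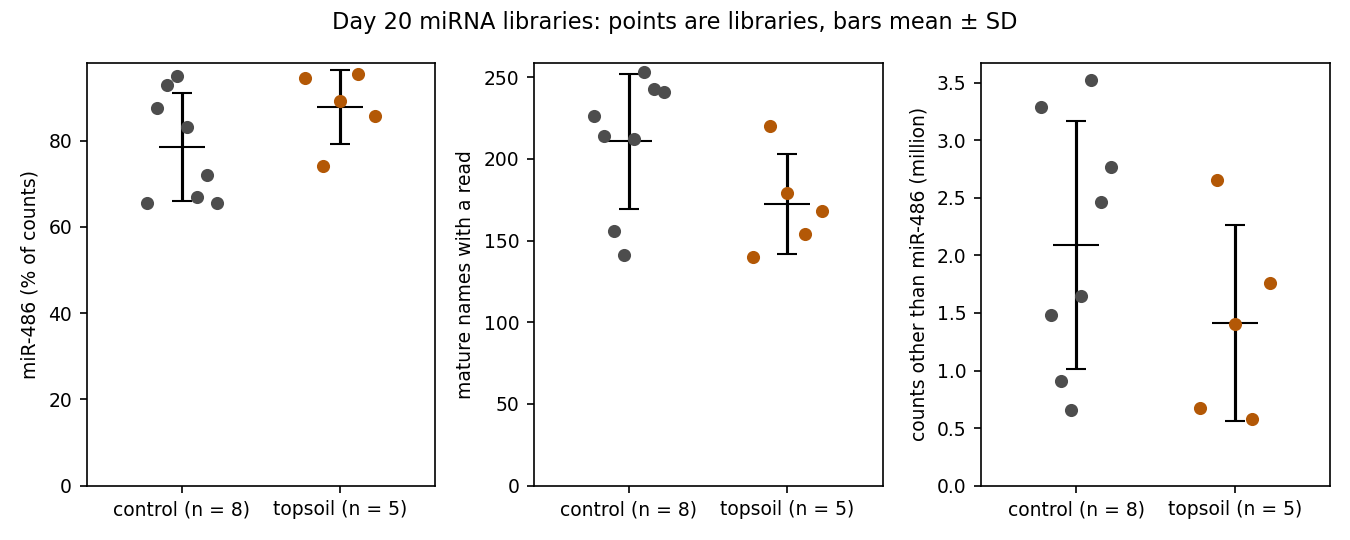
Share of miR-486 in percent of counts (left), number of mature names with a read (middle) and counts other than miR-486 (right) for the 8 control and 5 topsoil libraries of day 20. Points are libraries and bars the mean ± SD, and the groups overlap in all 3 panels, with miR-486 between 65.5% and 95.5% of a library.

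Few miRNAs separated topsoil from control pigs. By edgeR with upper quartile scaling, miR-375 was the single one called at an adjusted p under 0.10, 1 of 209 or 0.478% of those tested. DESeq2 called miR-375, miR-132 and miR-99a-3p, and limma voom called miR-99a-3p and miR-1306-5p but not miR-375. miR-132 was higher and miR-22-3p lower in every topsoil library than in any control, without passing that threshold by edgeR with upper quartile scaling. The adjusted p was 0.0272 for miR-132 by DESeq2 and 0.0875 for miR-22-3p by edgeR with litter size added. Levels are given as CPM, counts relative to the library size after upper quartile scaling, so that the level of miR-486 can exceed the scaled library size. At an unadjusted p under 0.05, 4 miRNAs (1.91%) were higher and 22 (10.5%) lower in topsoil. The topsoil and control libraries did not overlap for 2 miRNAs, miR-132, with topsoil above (0.478% of those tested), and miR-22-3p, with topsoil below (0.478%). Over all 209 miRNAs the median log2 fold change (FC) of topsoil over control was -0.24, with 131 below 0 and 78 above. This excess of lower values depended on the scaling of the libraries. After TMM normalization the median was -0.03, with 109 below and 100 above 0, and 8 miRNAs were lower and 8 higher at an unadjusted p under 0.05. Under total counts, where the share of miR-486 enters every other value, the median was -1.03 and 192 of the 209 lay below 0. With the library size taken without miR-486, it was -0.21 with 131 below 0. With only miRNAs of a mean of 10 reads or more, which raises the quartile used for scaling, the median was 0.07, and 9 were higher and 2 lower at that p. The 8 lower and 4 higher miRNAs that had such a p under both the upper quartile and TMM are all described below. Under all 4 scalings, 7 miRNAs were lower at an unadjusted p under 0.05 by edgeR, and 1 was higher (miR-375). The lower ones were miR-22-3p, miR-151-5p, miR-99a-3p, miR-424-3p, miR-504, miR-532-3p and miR-34a. Of these, miR-424-3p, miR-504, miR-532-3p and miR-34a had 0 counts in every topsoil library, so no scaling could change their direction. miR-99a-3p had topsoil counts in topsoil 2 alone.

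**Figure D2:**
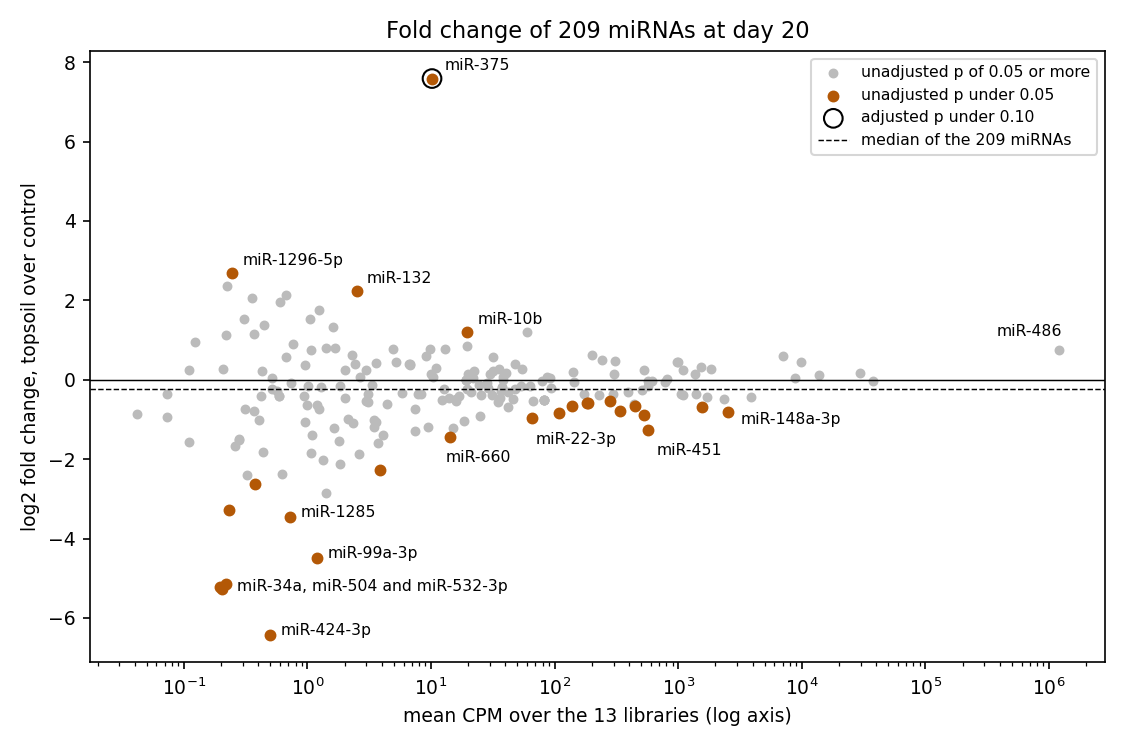
Log2 fold change of topsoil over control against the mean CPM over the 13 libraries (log axis) for the 209 miRNAs tested. Orange points have an unadjusted p under 0.05, the ring marks miR-375 (adjusted p = 0.00598, edgeR), and the dashed line is the median of -0.24.

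miR-375, a miRNA known from pancreatic islets, gut epithelium and other secretory cells, was the one called miRNA, and 2 topsoil pigs carried its signal. It had 808 counts in topsoil 3 and 338 in topsoil 5, against 1 in topsoil 1 and 0 in topsoil 2 and 4. The controls had 2, 1, 0, 0, 8, 2, 2 and 1 counts in control 1 to 8. On the CPM scale the topsoil values were 0.270, 0, 101, 0 and 30.6, and no control exceeded 0.470. The other 3 of the 5 topsoil libraries lay within the control range. The log2 FC was 7.59 with an SE of 1.42 (edgeR quasi-likelihood test, adjusted p = 0.00598). Without topsoil 3 the log2 FC was 5.85, the adjusted p was 0.105 and no miRNA was called. The call was also lost with limma voom (log2 FC 2.85, adjusted p = 0.378), with sex and parity in the model (log2 FC 6.85, adjusted p = 0.299) and with limma over all 39 libraries and pig as a random effect (log2 FC 2.90, adjusted p = 0.263). Over the fits with other settings the adjusted p of miR-375 ran from 0.00127 to 0.838, the last under the groups of the sample characteristics, and over those without 1 library from 0.000331 to 0.105. In bulk RNA a change in the number of cells of a type and in the RNA of each cell cannot be told apart, here as for every miRNA below. The same topsoil 3 pig had 57 counts of miR-375 at day 11, where the other 12 pigs had 0 to 12. The log2 FC of miR-375 was 4.15 (SE 1.42, unadjusted p = 0.00811, edgeR adjusted p = 0.776) at day 11 and 1.17 (SE 1.20, unadjusted p = 0.340) at day 56. At day 56 topsoil 3 had 2 counts, and the highest were 34 in topsoil 1, 21 in control 3 and 12 in topsoil 5. Of the 9 markers of epithelium and endocrine cells in the table, 7 had a read and 3 were tested (miR-375, miR-192 and miR-215). miR-192, an intestinal and liver miRNA, averaged 149 ± 51.0 CPM in topsoil against 189 ± 113 CPM in controls. miR-215, its close relative, had a log2 FC of -2.40 with an unadjusted p of 0.10. miR-200b and miR-429, the defining epithelial markers, had 0 counts in all 13 libraries. miR-141 had 5 and miR-205 had 3 counts in the controls together and 0 in topsoil. The median log2 FC of the 3 tested markers was -0.35, and 2 of 3 were below 0 under each of the 4 scalings. The summed level of the whole list, tested or not, ran from 66.9 to 380.5 CPM in controls and from 78.3 to 247 CPM in topsoil.

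miR-132, a miRNA induced by CREB and by signals of bacterial products in leukocytes, had its topsoil libraries all above all controls, as did no other of the 209 (0.478%). Its levels were 10.0, 2.12, 6.10, 2.68 and 3.53 CPM in topsoil 1 to 5 and between 0 and 1.97 CPM in the control libraries (median 1.01). The lowest topsoil library was just above the highest control of 1.97 CPM. These levels rested on 37, 49, 49, 16 and 39 counts in topsoil 1 to 5 and on 36, 9, 1, 0, 10, 43, 24 and 30 counts in control 1 to 8. The log2 FC was 2.22 (SE 0.83, 95% interval 0.40 to 4.05), with an unadjusted p of 0.0140 and an edgeR adjusted p of 0.247, so that it did not pass the threshold. DESeq2 called it, with a log2 FC of 2.28 and an adjusted p of 0.0272, the lowest over the other settings, which reached 0.990. Under total counts the log2 FC was 0.66 and the groups overlapped. miR-212, encoded beside miR-132 on chromosome 12, had a log2 FC of -1.49 with an unadjusted p of 0.239 at means of 0.111 ± 0.187 CPM in topsoil against 0.380 ± 0.376 CPM in controls, opposite in sign to its neighbour.

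miR-10b and miR-10a-5p, encoded in the HOX clusters and sharing the seed ACCCUGU, both had a positive log2 FC, which for miR-10a-5p was -0.33 under total counts. miR-10b was measured at 51.3, 13.5, 29.9, 31.3 and 23.3 CPM in topsoil 1 to 5 and between 2.96 and 40.2 CPM in the control libraries (median 8.01). All topsoil libraries lay above the control median, and control 4 was higher than 4 of the 5 topsoil libraries. The log2 FC of miR-10b was 1.20 (SE 0.57), with an unadjusted p of 0.0464 and an edgeR adjusted p of 0.381. For miR-10a-5p the log2 FC was 0.49 (0.26 without topsoil 1) with an unadjusted p of 0.181, from 293 ± 127 CPM in topsoil against 209 ± 106.9 CPM in controls. The ratio of these 2 miRNAs does not depend on the scaling. There were 11.09, 6.56, 10.8, 8.36 and 15.9 counts of miR-10b per 100 counts of miR-10a-5p in topsoil 1 to 5, and 3.07 to 10.1 in controls (median 4.41). Controls 2, 3 and 4 had 7.09, 7.67 and 10.1, inside the topsoil range, and the other 5 controls lay below all topsoil libraries. This ratio was chosen after the values were seen, and it was not tested.

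miR-143-3p, a miRNA of smooth muscle and stromal cells that is also found in platelets, was measured at 184, 5.40, 151.8, 28.1 and 85.8 CPM in topsoil 1 to 5 and between 11.7 and 76.4 CPM in the control libraries (median 37.8). Topsoil 1, 3 and 5 exceeded every control, and topsoil 2 was below every control. Its log2 FC was 1.20 (SE 0.60) with an unadjusted p of 0.0577, and it was -0.18 under total counts. The level of miR-342, a lymphocyte miRNA encoded in an intron of EVL, was 311, 95.9, 401, 269 and 200.1 CPM in topsoil 1 to 5 and between 61.3 and 307 CPM in the control libraries (median 154). Its log2 FC of 0.61 had an unadjusted p of 0.118. miR-146a-5p, a feedback inhibitor of Toll-like receptor signalling, averaged 373 ± 191 CPM in topsoil against 267 ± 121 CPM in controls, and its highest library was topsoil 1 at 626 CPM. Its log2 FC was 0.48 with an unadjusted p of 0.172. Without topsoil 1 the log2 FC was 0.21 for miR-146a-5p and 0.78 for miR-143-3p, and without topsoil 3 it was 0.39 for miR-342. Under total counts miR-342, miR-146a-5p and miR-10a-5p all had a negative log2 FC, above the median of -1.03 of that scaling.

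The remaining miRNAs with the smallest p among those higher in topsoil were rare, and each rested on a few counts. miR-1296-5p, encoded in an intron of JMJD1C, had 0, 0, 4, 13 and 0 counts in topsoil 1 to 5 and 5 or fewer in any control. Its log2 FC of 2.68 had an unadjusted p of 0.0440. Without topsoil 4 the log2 FC was 0.63 and the unadjusted p was 0.639. miR-628-3p had 9, 14, 0, 13 and 15 counts in topsoil 1 to 5 and 42 in the 8 controls together, with a log2 FC of 2.14 and an unadjusted p of 0.0550. For miR-127, an imprinted miRNA antisense to RTL1, 18 of the 19 topsoil counts came from topsoil 3. For miR-769-3p the topsoil counts were 18, 21, 0, 0 and 0, and for miR-7135-3p, in an intron of ABCC1, they were 0, 28, 38, 1 and 56. Their log2 FC were 2.36, 1.95 and 1.77, with unadjusted p of 0.0715, 0.165 and 0.130. The log2 FC of miR-127 was -1.73 without topsoil 3, and that of miR-769-3p was -0.11 without topsoil 1.

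miR-22-3p, an abundant miRNA known from erythroid and myeloid differentiation, had its topsoil libraries all below all controls, as did no other of the 209 (0.478%). It was measured at 355, 388, 322, 403 and 262 CPM in topsoil 1 to 5 and between 410.1 and 919 CPM in the control libraries (median 624.5). The highest topsoil library, topsoil 4, and the lowest control, control 8, were close at 403 and 410.1 CPM. Its means were 346 ± 56.7 CPM in topsoil against 641 ± 189 CPM in controls, a log2 FC of -0.89 (SE 0.25, 95% interval -1.44 to -0.34). The unadjusted p was 0.00180 and the edgeR adjusted p was 0.188, above the threshold. With litter size in the model the adjusted p was 0.0875, and without control 3 or control 8 it was 0.0899 and 0.0904. Over the other settings it ran from 0.0875 to 0.838, and over the fits without 1 library from 0.0899 to 0.396. After TMM normalization the log2 FC was -0.69 and the groups overlapped. This miRNA was measured on 1314 to 19665 counts in every library.

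miR-148a-3p and miR-148b-3p, which share the seed CAGUGCA and are known from lipid metabolism and B cell tolerance, both had a negative log2 FC at an unadjusted p under 0.05, which neither had after TMM normalization (0.0626 and 0.114) and miR-148b-3p did not have under total counts (0.0947). miR-148a-3p was measured at 1769, 2525, 1269, 1773 and 1396 CPM in topsoil 1 to 5 and between 1680.2 and 4857 CPM in the control libraries (median 3113). Topsoil 3 and 5 were below every control, topsoil 1 and 4 were above control 3 alone, and topsoil 2 was inside the control range. The log2 FC was -0.80 (SE 0.28, unadjusted p = 0.00921), and that of miR-148b-3p was -0.59 (SE 0.24, unadjusted p = 0.0200). miR-152, which belongs to the same family, had 19 counts in controls and 0 in topsoil and was not tested.

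The log2 FC of the 3 erythroid miRNAs had both signs, with 2 of 3 below 0 under each of the 4 scalings and a median of -1.22. miR-451, whose precursor is cut by Argonaute in place of Dicer, was measured at 159, 505, 206, 370.3 and 301 CPM in topsoil 1 to 5 and between 221.7 and 1720.2 CPM in the control libraries (median 578). Its log2 FC was -1.26 (SE 0.45, unadjusted p = 0.0111, or 0.0540 after TMM normalization). miR-144, from the same transcript, had a log2 FC of -1.22 with a wider SE of 0.75 (unadjusted p = 0.120). miR-486 had a log2 FC of 0.74 (SE 0.71, unadjusted p = 0.307), or 0.33 without topsoil 1. Within a library, and so free of scaling, there were 0.499, 15.4, 1.43, 1.81 and 3.12 counts of miR-451 per 10000 counts of miR-486 in topsoil 1 to 5. The controls had 7.59, 15.9, 1.03, 1.46, 22.3, 23.0, 37.6 and 16.3. The ratio was lowest in topsoil 1 and highest in control 7, and the groups overlapped. It was chosen after the values were seen.

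miR-151-5p, encoded in an intron of PTK2 (focal adhesion kinase), was measured at 47.3, 90.0, 113, 62.5 and 52.1 CPM in topsoil 1 to 5 and between 85.8 and 158 CPM in the control libraries (median 127). All topsoil libraries were below the control median, and topsoil 2 and topsoil 3 lay above the lowest control. Its log2 FC was -0.84 (SE 0.28, unadjusted p = 0.00638), and with RQI, the RNA quality index, in the model the adjusted p was 0.0553, the lowest over the other settings, which reached 0.838. For miR-30e-5p, one of 5 members of the miR-30 family with the seed GUAAACA, the levels were 163, 416, 191, 158 and 237 CPM in topsoil 1 to 5 and between 248 and 619 CPM in the control libraries (median 379). Its log2 FC of -0.79 (SE 0.29) had an unadjusted p of 0.0138, and the other 4 members had log2 FC between -0.35 and 0.23 (-0.77 for miR-30b-5p under total counts). miR-16, which restrains the cell cycle and BCL2, was measured at 1149, 1589, 958, 986 and 973 CPM in topsoil 1 to 5 and between 1132 and 3223 CPM in the control libraries (median 1661). The log2 FC of miR-16 was -0.69 (SE 0.27, unadjusted p = 0.0182). Its seed mates miR-15a and miR-15b had -0.48 and -0.51, with unadjusted p of 0.191 and 0.0882. The adjusted p of miR-151-5p, miR-30e-5p and miR-16 was 0.247 (edgeR). After TMM normalization the unadjusted p was 0.0780 for miR-30e-5p and 0.0925 for miR-16.

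The other 6 of the 12 lower miRNAs with the smallest p were rare, and 4 of them had 0 counts in all 5 topsoil libraries. For these 4 the fold is a lower bound, taken against 3 counts over the whole topsoil group, or 0.0578 CPM, from the mean CPM of the controls. miR-424-3p, from the X-linked cluster of miR-424 and miR-503, had 4, 5, 21, 0, 1, 2, 14 and 26 counts in control 1 to 8 and was at least 14.1-fold lower, or at least 6.78-fold without control 3. miR-34a, a target of p53, had 1, 0, 0, 9, 0, 3, 7 and 8 counts in the controls and was at least 6.10-fold lower, or at least 2.19-fold without control 4 and at least 4.00-fold from the pooled control counts. The bounds of miR-532-3p and miR-504 were at least 5.76-fold and at least 5.51-fold lower, on 56 and 53 control counts, and each was at 0 in 4 of the 8 controls. Without control 7 the bound of miR-504 was at least 2.58-fold. The unadjusted p of these 4 was 0.00366 for miR-424-3p, 0.0168 for miR-34a, 0.0117 for miR-532-3p and 0.0150 for miR-504, and the edgeR adjusted p was 0.244 for the first. The partner arm miR-532-5p averaged 38.0 ± 14.5 CPM in topsoil against 37.9 ± 17.1 CPM in controls. miR-99a-3p had 6 counts in topsoil 2 and 0 in the other topsoil libraries, against 8, 9, 0, 34, 27, 22, 27 and 60 in controls, a log2 FC of -4.50 (SE 1.42, unadjusted p = 0.00468). Without control 4 the log2 FC of miR-99a-3p was -3.78. Without topsoil 2, which leaves 0 counts in topsoil, it was -7.57, a fitted value that depends on the prior count and is no bound. DESeq2 and limma voom both called it, at adjusted p of 0.0543 and 0.0670, and over the other settings its adjusted p reached 0.912. Its partner arm miR-99a-5p had the opposite sign, at 39.6 ± 29.6 CPM in topsoil against 26.6 ± 9.27 CPM in controls (log2 FC 0.57, or -0.60 under total counts, unadjusted p = 0.186). miR-1285 had 0, 6, 0, 0 and 1 counts in topsoil 1 to 5 and 10, 6, 30, 0, 9, 5, 21 and 16 in controls, with a log2 FC of -3.45 (SE 1.32, unadjusted p = 0.0167). A count was worth 0.0432 to 0.270 CPM and most in topsoil 1. The part of this depth in the zeros was not tested. PCR reads carry no molecular identifiers here, so these bounds cover counting error only.

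**Figure D3:**
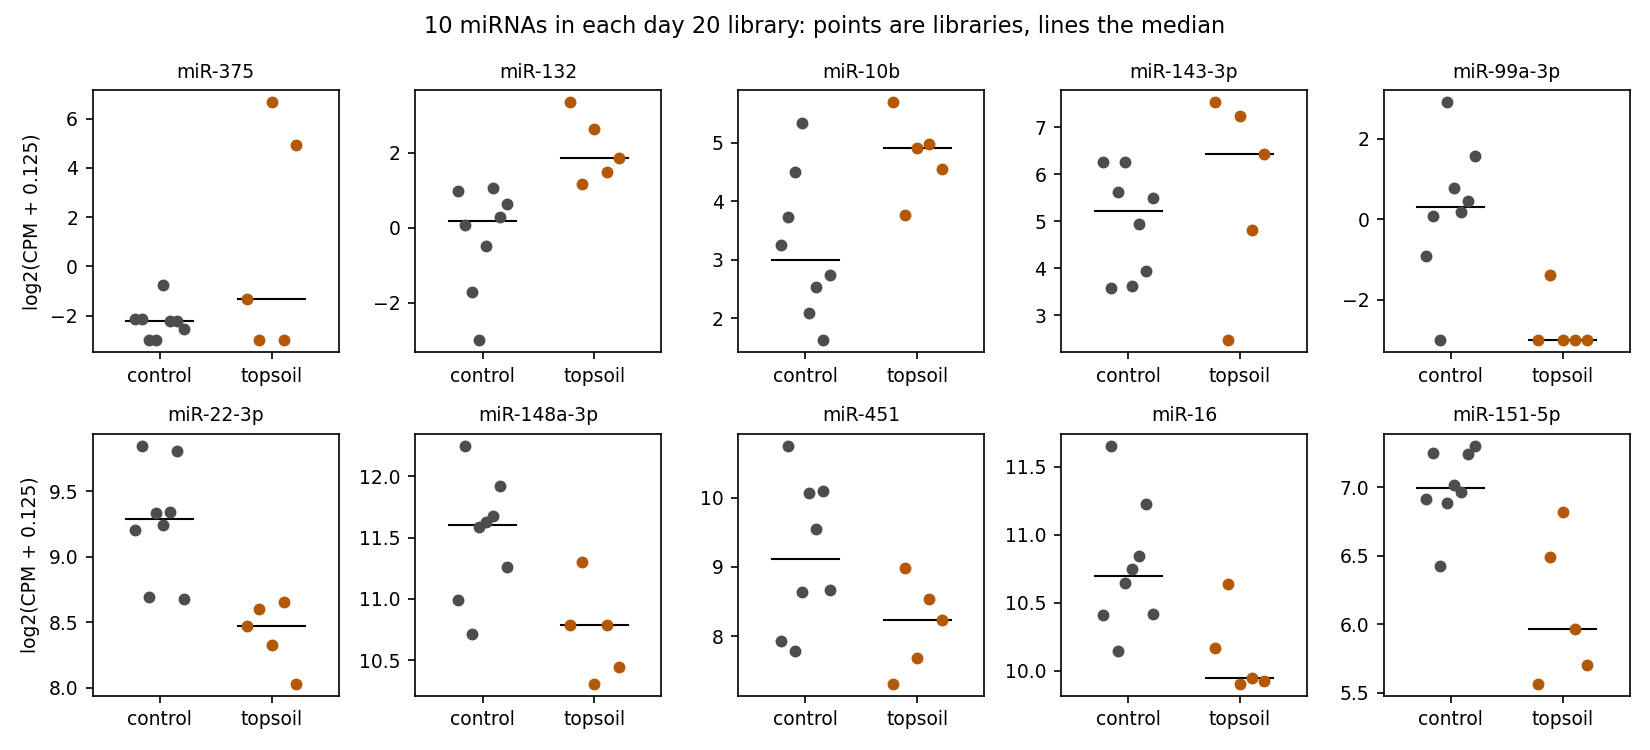
Levels of 10 miRNAs as log2(CPM + 0.125) in the 8 control and 5 topsoil libraries, with a line at the median of each group. miR-132 is above and miR-22-3p below in every topsoil library, and the signal of miR-375 is in 2 topsoil libraries.

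The most abundant miRNAs after miR-486 were let-7f-5p, miR-181a, let-7a, miR-191, let-7i-5p, miR-182, miR-423-5p, miR-148a-3p and miR-92a. let-7f-5p, of the let-7 family that accumulates as cells differentiate, averaged 37459 ± 12353 CPM in topsoil against 38279 ± 9309.6 CPM in controls. miR-181a, which tunes the signalling threshold of lymphocytes, averaged 31569 ± 17035 CPM in topsoil against 28063 ± 14647 CPM in controls. For let-7a the means were 14565 ± 3902 CPM in topsoil against 13504 ± 3972 CPM in controls, and for let-7i-5p 8939 ± 1382 CPM in topsoil against 8681 ± 1632 CPM in controls. On this scale these 4 differed between the groups by less than the spread within them. Under total counts their log2 FC were -0.79 for let-7f-5p, -0.92 for miR-181a, -0.64 for let-7a and -0.76 for let-7i-5p, above the median of -1.03 of that scaling. miR-191, in an intron of DALRD3, averaged 11781 ± 4949 CPM in topsoil against 8698 ± 3633 CPM in controls, and miR-182 averaged 8848 ± 6628 CPM in topsoil against 5838 ± 5912 CPM in controls. miR-182 was uneven in both groups, at 20539.7, 4604, 6882, 5079 and 7134 CPM in topsoil 1 to 5 and between 668 and 17206 CPM in the control libraries (median 4213). miR-96-5p of the same cluster, which was below the filter, had 62 counts in topsoil 1 and 1 count in all 12 other libraries. It was chosen after its counts were seen, and topsoil 1 was also the highest library for miR-182. miR-423-5p averaged 3149 ± 704 CPM in topsoil against 4288 ± 1221 CPM in controls and miR-92a 1862 ± 239.9 CPM in topsoil against 2619.8 ± 818 CPM in controls.

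The median log2 FC of the immune groups lay on both sides of the -0.24 of all 209 miRNAs. Of 5 lymphocyte miRNAs, 0 were called or had an unadjusted p under 0.05 by edgeR with upper quartile scaling (1, miR-342, was higher at that p after TMM normalization), beside 1.91% higher and 10.5% lower of all 209. Of the 5, 4 had a positive log2 FC, and the median was 0.17. miR-150 of mature B and T cells averaged 1456 ± 630.1 CPM in topsoil against 1317 ± 639 CPM in controls. miR-155-5p, induced in activated lymphocytes and macrophages, was rare, at 0.373 ± 0.569 CPM in topsoil against 0.452 ± 0.316 CPM in controls. The leukocyte miRNAs miR-142-3p and miR-142-5p had log2 FC of -0.38 and -0.38, and the myeloid miR-223 had -0.39. The 6 inflammation miRNAs, a group that shares miR-155-5p with the lymphocytes, with 0 called by edgeR and 1 higher at an unadjusted p under 0.05 (miR-132, and 0 under total counts), had a median of 0.10. miR-21-5p, the most abundant of them, averaged 1421 ± 389 CPM in topsoil against 1906 ± 757 CPM in controls. All 5 lymphocyte and 5 of the 6 inflammation miRNAs were below 0 under total counts. Of 6 platelet and vascular miRNAs tested, 4 were below 0 (2 after TMM normalization and 6 under total counts), with a median of -0.40. In this group the counts of miR-199b-3p equalled those of miR-199a-3p in every library, so the pair cannot be told apart. The liver miRNA miR-122-5p and the muscle miRNAs miR-1, miR-133a-3p, miR-133b and miR-206 had 0 counts in all 13 libraries, and miR-499-5p had 4 counts in controls. Of the neural miRNAs, miR-124a had 0 counts, and miR-9, miR-128 and miR-7-5p had log2 FC between -0.40 and 0.14 (median -0.01). The counts of the erythroid group were nearly all miR-486, whose share overlapped between the groups. The part of red cell RNA in the other differences was not tested.

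Seed families and clusters were described next. Of the miRNAs tested, 71 shared a seed with another one, in 26 groups. Of these, 2 are 1 measurement each under 3 names, since miR-339, miR-339-5p and miR-4334-3p had identical counts in every library, as did miR-9, miR-9-1 and miR-9-2. The let-7 family with miR-98 (seed GAGGUAG) had 5 of 8 members above 0 (0 under total counts), with a median log2 FC of 0.03 and a range of -0.37 to 0.32. The miR-99, miR-100, miR-125 and miR-10 group had 6 of its 7 members above 0 and a median of 0.57, and 1 member, miR-10b, had an unadjusted p under 0.05 (0 under total counts), beside 1.91% higher of all 209. After TMM normalization all 7 were above 0, and under total counts 1 of the 7 was. Within it, miR-99a-5p, miR-99b and miR-100, which share the seed ACCCGUA, had log2 FC of 0.57, 0.84 and 0.76. For the miR-17-92 cluster and its paralogues, which promote lymphocyte proliferation, 7 of 10 members were below 0 (6 after TMM normalization), with a median of -0.48 and 1 at an unadjusted p under 0.05, miR-19a (-0.96), beside 10.5% lower of all 209. After TMM normalization or under total counts 0 had such a p. The 7 mature miRNAs encoded on chromosome 11 in this cluster all lay below 0. They ran from -1.88 for miR-18a to -0.08 for miR-20a-5p, which was at 0.07 after TMM normalization. Of them, miR-19b and miR-92a are also encoded in a paralogous cluster on X, so their reads cannot be assigned to chromosome 11. In that X cluster 2 of 5 tested miRNAs lay above 0. The miR-15 and miR-16 group had 3 of 3 members below 0 and the miR-148 group 2 of 2 under each of the 4 scalings. In the group of miR-191, miR-425, miR-423, miR-103 and miR-107, 6 of 7 were below 0 (7 under total counts) and 2 had an unadjusted p under 0.05, miR-103 (-0.52) and miR-423-3p (-0.66), beside 10.5% lower of all 209. Neither had such a p after TMM normalization or under total counts. The group medians were -0.20 for miR-23, miR-24 and miR-27, -0.31 for miR-26, -0.47 for miR-29, -0.15 for miR-30, 0.07 for miR-181 and -0.07 for miR-183 and miR-182. None of the groups in this paragraph and the next had a called member by edgeR with the filter on low counts. With no filter edgeR called miR-96-5p of the miR-183 group (adjusted p = 0.0482), whose counts were nearly all in topsoil 1.

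On the X chromosome, the 4 tested members of the cluster of miR-424, miR-450, miR-503 and miR-542 were below 0 under each of the 4 scalings, with a median of -1.75 that did not change when miR-424-3p was put at its bound. The 8 members with a read, tested or not, were rare, with a summed level of 0 to 25.4 CPM in controls and 0 to 7.22 CPM in topsoil. miR-450b-5p, the most abundant, averaged 1.59 ± 2.48 CPM in topsoil against 5.00 ± 6.17 CPM in controls (log2 FC -1.60, unadjusted p = 0.218). miR-450a, which was not tested, had 58 counts in controls, 45 of them in control 8, and 1 in topsoil. The other X-linked cluster, with miR-532, miR-660 and miR-500, had 3 of 4 members below 0 (4 of 4 under total counts or without miR-486) and a median of -0.90. miR-660 had a log2 FC of -1.45 (SE 0.59, unadjusted p = 0.0225) from 6.80 ± 4.21 CPM in topsoil against 18.8 ± 6.24 CPM in controls. The 2 members of the miR-221 and miR-222 pair, which also lie together on X, had -0.20 and 0.07, or 0.02 and 0.30 after TMM normalization.

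**Figure D4:**
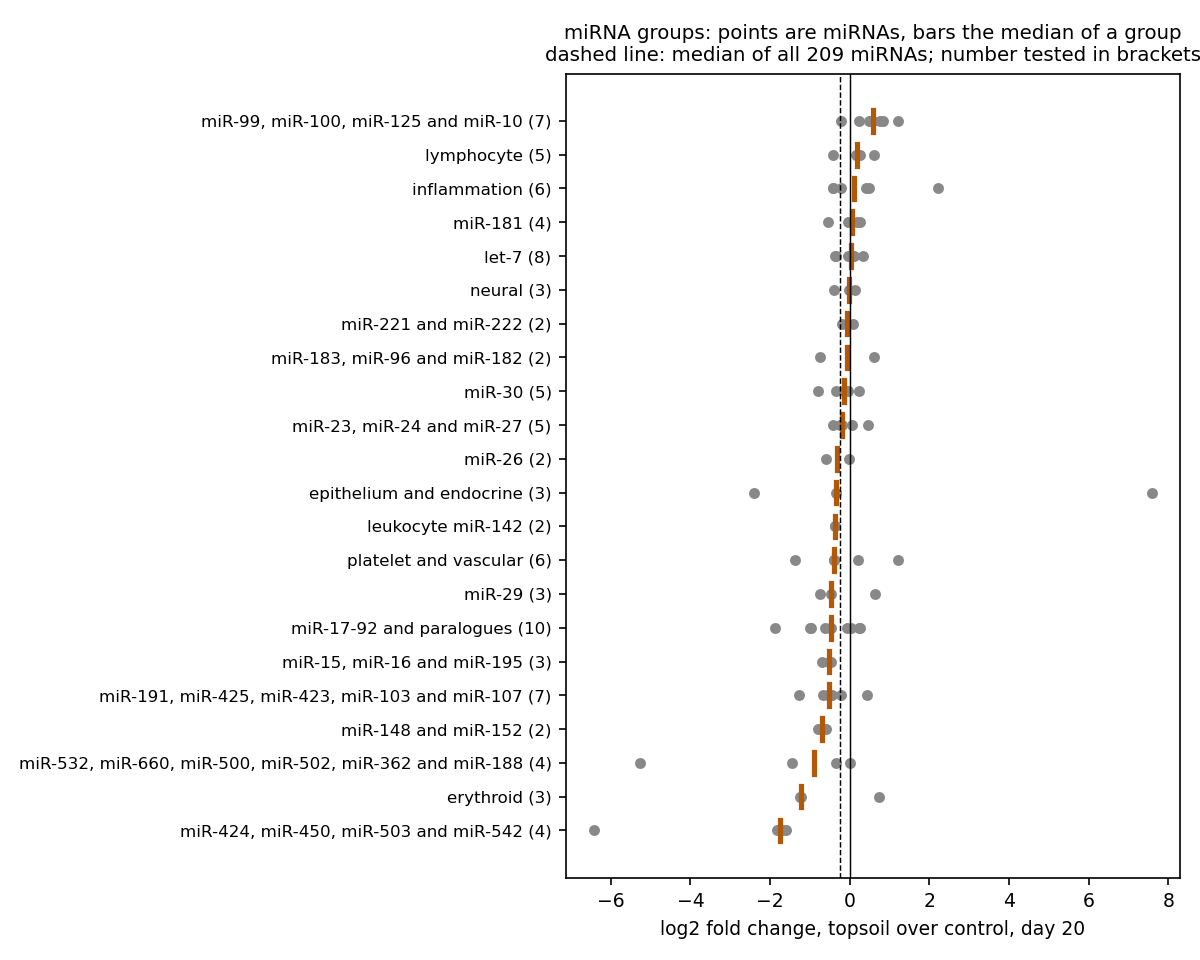
Log2 fold change of topsoil over control for the tested miRNAs (points) of 22 groups, with an orange bar at the median of each and the number tested in brackets. The dashed line is the median of -0.24 of all 209 miRNAs, and group medians run from -1.75 to 0.57. Under total counts the median of each of the 22 groups lies below 0, the highest at -0.36 (miR-183 and miR-182).

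The study itself selected 21 miRNAs for an interaction of treatment and age. It chose them on these libraries, so their values at day 20 are not independent evidence. All 21 were tested at day 20 and 0 were called by edgeR (0.478% of all 209). DESeq2 called miR-132, and edgeR called miR-22-3p with litter size added, without control 3 or without control 8. Limma voom called miR-1306-5p, as did limma over all 39 libraries with pig as a random effect (log2 FC -3.92, adjusted p = 0.0252). Of the 21, 16 had a log2 FC below 0 (14 after TMM normalization and 19 under total counts), with a median of -0.89. By edgeR 7 had an unadjusted p under 0.05, 6 below 0 (miR-22-3p, miR-26b-5p, miR-103, miR-660, miR-1285 and miR-1306-5p) and 1 above (miR-132). Of all 209, 131 were below 0 and the median was -0.24, with 10.5% lower and 1.91% higher at that p. After TMM normalization 2 of the 21 were lower (miR-22-3p and miR-1285) and 2 higher (miR-132 and miR-143-3p) at that p, and under total counts 1 was lower (miR-22-3p) and 0 were higher. miR-26b-5p averaged 139 ± 35.2 CPM in topsoil against 209 ± 35.6 CPM in controls (log2 FC -0.59), while miR-26a, from another gene, averaged 562 ± 156 CPM in topsoil against 572 ± 192 CPM in controls. miR-1306-5p had a log2 FC of -2.26 (SE 1.03). Its levels were 0, 1.82, 3.74, 0 and 0 CPM in topsoil 1 to 5 and between 1.94 and 9.33 CPM in controls.

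The range of log2 FC was wider among rare than among abundant miRNAs. In the lowest of 4 classes of mean level (up to 1.20 CPM, 53 miRNAs) the log2 FC ran from -4.50 to 2.68, leaving out the 4 miRNAs at 0 in all topsoil libraries, whose folds are bounds. Over all 53 there were 8 lower and 1 higher at an unadjusted p under 0.05. In the next class (up to 12.2 CPM, 52 miRNAs) the range was -2.85 to 7.59, the highest being miR-375, and 1 was lower and 2 were higher. In the highest class (from 82.8 CPM, 52 miRNAs) the range was -1.26 to 0.74, with 11 lower and 0 higher at that p by edgeR with upper quartile scaling. After TMM normalization 2 of this class were lower (miR-22-3p and miR-151-5p) and 2 higher (miR-342 and miR-98). The median log2 FC of this class was -0.11, and after TMM normalization it was 0.06. Another 84 mature names had a read at day 20 but were not tested. Of these, 48 had counts in controls alone, 7 in topsoil alone and 29 in both. miR-194a-5p, an epithelial and liver miRNA, had 57 counts over 6 controls and 0 in topsoil.

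**Figure D5:**
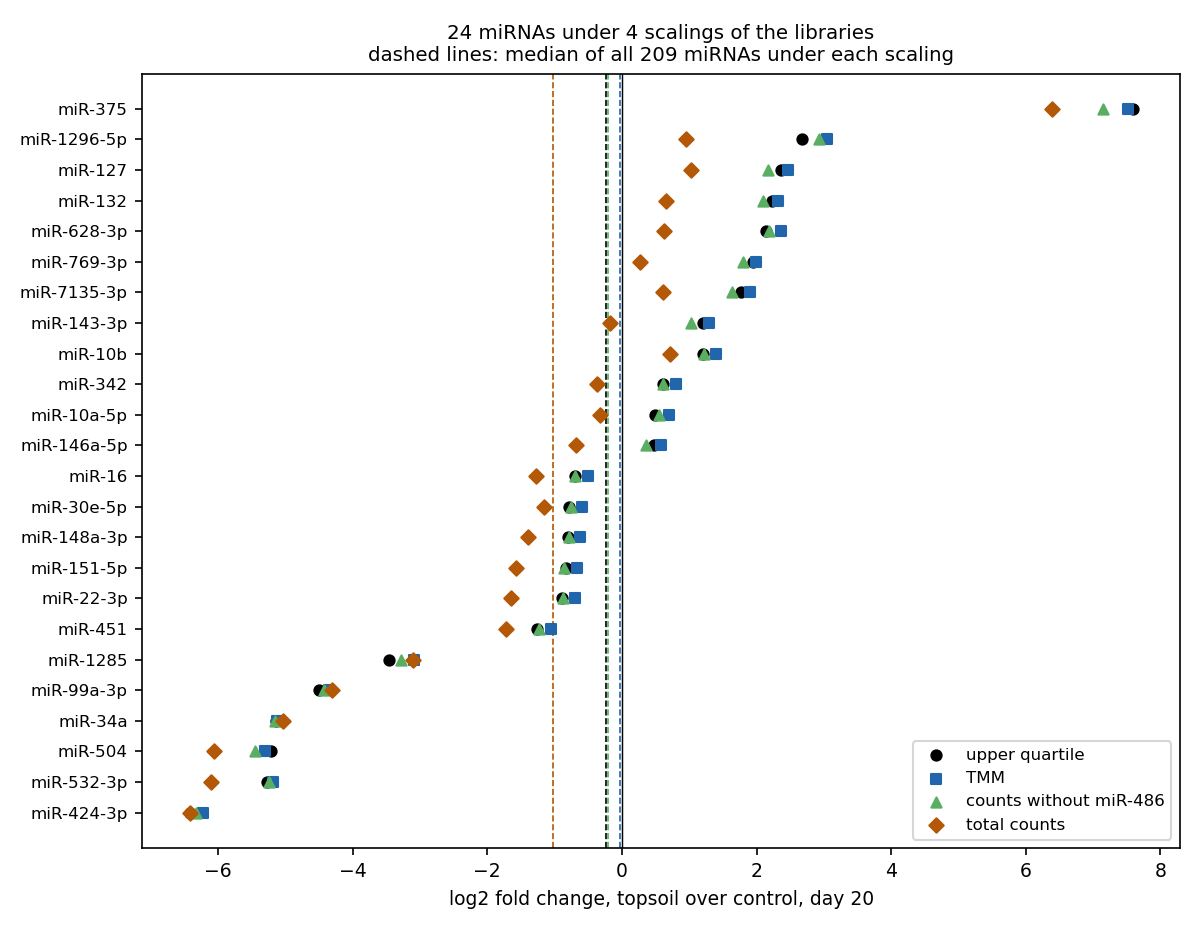
Log2 fold change of the 24 miRNAs with the smallest p in either direction under upper quartile, TMM, total count scaling and library sizes without miR-486. Dashed lines mark the median of all 209 miRNAs under each scaling, -1.03 under total counts, where miR-143-3p, miR-342, miR-10a-5p and miR-146a-5p lie below 0.

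The same pigs were also sampled at day 11, during the exposure, and at day 56, after it. Between topsoil and control, 0 of the 209 miRNAs were called at either age (0%), and at an unadjusted p under 0.05 edgeR gave 2 higher (0.957%) and 4 lower (1.91%) at day 11 and 5 higher (2.39%) and 1 lower (0.478%) at day 56. No other tool was run at these ages. The log2 FC of miR-22-3p was -0.04 (SE 0.32) at day 11, -0.89 at day 20 and 0.27 (SE 0.22) at day 56. For miR-132 it was 0.65, 2.22 and -0.57 with SE of 1.46 and 0.78 at days 11 and 56. Whether the difference at day 20 departed from those at the other ages was tested with pig as a block. No miRNA was called (0 of 209, or 0%), and 19 (9.09%) had an unadjusted joint p under 0.05. Without the pig block, 1 was called. The extra difference of miR-22-3p at day 20 was -0.82 (SE 0.34) over day 11 and -1.17 (SE 0.34) over day 56, with an edgeR adjusted joint p of 0.433. For miR-132 the adjusted joint p was 0.644, and for miR-375 it was 0.730. By the fit with the pig block, a difference particular to day 20 was therefore not shown for any miRNA. That fit held no term for RQI, unlike the mixed model of the study, which selected the 21 miRNAs described above.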

How the data were processed

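Small RNA of PBMC was sequenced as 50-base single reads on 1 lane, and the authors deposited counts per mature miRNA and precursor (miRDeep2 on Sscrofa11.1, version not given in the sources used here, after trimming with Trim Galore 0.4.5), not normalized. Reads have no molecular identifiers. The mRNA table was not used.

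Columns were assigned by their names. For each mature name, the entry with the largest total was kept. The filter (a read in at least 17 of 39 libraries and a mean above 2), the upper quartile (75%) scaling and the false discovery rate of 0.10 follow the study's methods. The test does not: the study fitted mixed models in SAS, and here miRNAs were tested with edgeR 4.0.16 (quasi-likelihood test, Benjamini-Hochberg) in R 4.3.3. Log2 FC are fitted with a prior count of 0.125. The SE is the log2 FC over the square root of F, and intervals are 95%. Counts total 8023913 to 13342903 per library. DESeq2 1.42.0 and limma 3.58.1 were alternatives, with other scalings, filters, covariates, labels and left-out libraries. Exact permutation tests used scipy 1.17.1 over all splits of 8 and 5 pigs. The edgeR fit was tested on simulated data. Each library is another pig, so p-values measure the spread between these pigs.

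Named are called miRNAs, the 12 with the smallest p in each direction, the 10 most abundant, those whose groups do not overlap, and members of lists. The members and lists were chosen with earlier results of these data known.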

Additional observations from a re-analysis of the deposited data

Results flagged for a closer look

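Single libraries stood far from the others of their group, by Dixon's criterion, in 14 of 74 groups of values. Most of the 14 were rare miRNAs. The criterion assumes normal values, so the 3.7 expected at 1 in 20 are no measure of chance for rare miRNAs with many zeros. The level of miR-375 in control 5 was 0.470 CPM, against 0.104 in the next control. miR-1296-5p reached 0.228 CPM in control 7 and 2.18 CPM in topsoil 4. miR-127 reached 0.256 CPM in control 1 and 2.24 CPM in topsoil 3, the next topsoil library being at 0.0432. miR-769-3p stood at 4.86 CPM in topsoil 1. Of the miRNAs lower in topsoil, control 3 held the highest level of miR-424-3p (3.77 CPM) and of miR-1285 (5.38 CPM), and control 4 that of miR-99a-3p (7.31 CPM) and of miR-34a (1.94 CPM). miR-504 was highest in control 7 at 1.504 CPM, and miR-99a-3p was found in topsoil 2 alone of its group at 0.259 CPM. miR-182 was at 20539.7 CPM in topsoil 1 against 7134 in the next topsoil library. The total of topsoil 2, 10216500 counts, was the lowest of its group, the next being 12415400. The means, SD and log2 FC of these miRNAs rest in part on these libraries.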

How the results depend on the processing

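Depth limits the rare miRNAs, since a single count was worth 0.0432 to 0.270 CPM. The number of called miRNAs, 1 with edgeR, was 3 with DESeq2 (miR-375, miR-132 and miR-99a-3p), 2 with limma voom (miR-99a-3p and miR-1306-5p), 2 with no filter (miR-375 and miR-96-5p), 2 with RQI added (miR-375 and miR-151-5p), 3 with litter size added (miR-375, miR-22-3p and miR-451), 0 with sex and parity added, and 0 under the groups given by the sample characteristics. Limma over all 39 libraries with pig as a random effect also called 1, which was miR-1306-5p and not miR-375. Without 1 library at a time the number called was 0 to 2, with 0 without topsoil 3 and 2 without control 3 or control 8. The number higher in topsoil at an unadjusted p under 0.05, 4 at first, was 8 after TMM normalization, 1 under total counts, 14 with no filter, 9 with a mean of at least 10 reads, 1 with sex and parity added and 7 with every entry of the table. Without 1 library it was 2 to 7, with 2 without control 2 or topsoil 1 and 7 without topsoil 2. The number lower, 22 at first, was 8 after TMM normalization, 12 under total counts, 2 with a mean of at least 10 reads, 7 with every entry of the table and 6 under the sample characteristics, and 17 to 33 without 1 library. The cause of these shifts was not tested. The difference in the share of miR-486 was 7.29 to 12.7 percentage points without 1 library, and that in the number of names with a read was -50.5 to -30.5.

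Replicate numbers are shared by topsoil and control but belong to different pigs. With the replicate number as a block, 0 miRNAs were called (miR-375 had a log2 FC of 4.65 and an adjusted p of 0.316, edgeR) and 11 were lower and 3 higher at an unadjusted p under 0.05. The pairing check gave correlations of -0.0177 to 0.305 for the 5 pairs, and 0 of the 5 topsoil libraries correlated best with the control of its own number. The comparison of day 20 with the other ages gave 1 call without the pig block.

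For the miRNAs named by their p or for groups without overlap, the sign of a log2 FC changed as follows. Under total counts it was -0.18 for miR-143-3p, -0.38 for miR-342, -0.69 for miR-146a-5p and -0.33 for miR-10a-5p. For miR-127 it was -1.37 with RQI added and -1.73 without topsoil 3, and for miR-769-3p -0.11 without topsoil 1. Without 1 library at a time these 2 reached 2.89 and 2.37. Under the groups given by the sample characteristics, of the miRNAs higher in topsoil by the column names it was -2.05 for miR-375, -0.70 for miR-132, -1.85 for miR-10b, -0.41 for miR-628-3p, -1.38 for miR-143-3p, -0.66 for miR-127, -1.12 for miR-342, -0.34 for miR-769-3p, -0.59 for miR-146a-5p and -1.07 for miR-10a-5p. Of the lower miRNAs it was then 0.66 for miR-22-3p, 1.23 for miR-99a-3p, 0.61 for miR-151-5p, 0.75 for miR-148a-3p, 0.91 for miR-451, 0.31 for miR-30e-5p, 1.79 for miR-504, 0.012 for miR-1285, 0.75 for miR-34a and 0.48 for miR-16. That alternative uses other libraries, in other groups. Of the miRNAs named for their level, the log2 FC moved by more than the spread between libraries under total counts to -0.79 for let-7f-5p, -0.92 for miR-181a, -0.64 for let-7a, -0.52 for miR-191, -0.76 for let-7i-5p, -1.25 for miR-423-5p and -1.24 for miR-92a. Under the sample characteristics it moved to -1.75 for miR-486, -0.32 for let-7a, -0.97 for miR-191, 0.12 for miR-423-5p and -0.070 for miR-92a. It was 2.37 for miR-182 with litter size added, and 0.32 for let-7i-5p both with a mean of at least 10 reads and with every entry of the table. For single miRNAs, 859 other values kept their direction and their side of the threshold, or moved by less than the spread between libraries.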
